A study of Rattus norvegicus with 10 samples.

Results

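The genes described here encode secreted matrix glycoproteins, components of elastic fibres and of basement membranes, and surface markers of fibroblasts, measured in chemically induced rat mammary tumours before and after oral hydroxytyrosol. They were chosen by name: a list of 37 gene symbols, each taken from the probe sets (groups of short oligonucleotides that report 1 transcript) to which the platform annotation gives exactly that symbol. Of the 37, 36 had at least 1 such probe set, 53 probe sets in all, out of 14217 genes in the table. Thbs1 had none under this rule and was not analysed here, and Comp, a cartilage matrix protein, lay below the cutoff for dim probe sets (its mean signals were 3.91 in final samples and 3.98 in biopsies on the log2 scale, under the cutoff of 5.14). The other 35 are the tested members, and each is represented by its probe set of highest mean signal.

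The final group holds 5 tumours collected when the rats were killed aged 19 weeks. Those rats had received hydroxytyrosol, an olive phenol with antioxidant activity, by oral gavage (0.5 mg/kg, 5 days per week, 6 weeks in all). The basal group holds Trucut needle biopsies of the same 5 tumours, taken at 12 weeks of age at a tumour volume of 2 cm3, with no treatment given. Both groups come from female Sprague-Dawley rats that had received 1 oral dose of 7,12-dimethylbenz(a)anthracene (DMBA), a carcinogen, at 100 mg/kg, and the tumours were selected as Bloom-Richardson grade II. The labels call the basal piece a biopsy and the final piece a total tumour, while the design text calls both Trucut pieces. Later-age tumours that received no hydroxytyrosol were not analysed here, so treatment, age, tumour growth and the way of sampling cannot be told apart in any difference below. The labels do not say whether the 5 tumours grew in 5 rats, and the p-values measure only the spread between these tumours.

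The interstitial matrix of the mammary gland is laid down mostly by fibroblasts, which carry platelet-derived growth factor receptor alpha (Pdgfra). Fibronectin and the fibrillins form the first scaffolds, on which collagens, elastin and the fibulins are assembled, and matricellular proteins such as periostin and tenascin modulate how cells attach to them. Laminins, nidogens and perlecan build the basement membrane, a sheet that separates epithelium, muscle, fat and vessels from the stroma, and in tumours the same genes are read as signs of a fibroblast-rich stroma.

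Promoter sequences are shown for 5 of the 37 genes: Olfml2a, Postn and Fap, with the smallest p for a higher final signal, Dpt, with the largest difference of all, and Pdgfra, with the largest among the surface markers. Each is the 250 bases before the RefSeq transcript start, read 5′ to 3′ on the gene's strand from the GRCr8 assembly: chr3:43098049-43098298 (plus strand) for Olfml2a, chr2:140677811-140678060 (plus) for Postn, chr3:67616092-67616341 (minus) for Fap, chr14:33408517-33408766 (minus) for Pdgfra and chr13:79656091-79656340 (plus) for Dpt. Capitals mark matches to 4 motifs searched on both strands: the TATA box (TATAAA), the GC box bound by SP factors (GGGCGG), the AP-1 site (TGANTCA) and the TEAD site (GGAATG).
Olfml2a: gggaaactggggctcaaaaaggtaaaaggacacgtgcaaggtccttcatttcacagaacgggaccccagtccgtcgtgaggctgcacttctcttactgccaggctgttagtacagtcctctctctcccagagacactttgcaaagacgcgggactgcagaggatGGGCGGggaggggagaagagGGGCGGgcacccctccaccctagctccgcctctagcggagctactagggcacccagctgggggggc
Postn: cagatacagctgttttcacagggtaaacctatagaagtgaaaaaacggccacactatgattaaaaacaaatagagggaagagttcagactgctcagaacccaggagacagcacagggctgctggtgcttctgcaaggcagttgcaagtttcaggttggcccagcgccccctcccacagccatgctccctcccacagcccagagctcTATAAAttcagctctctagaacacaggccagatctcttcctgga
Fap: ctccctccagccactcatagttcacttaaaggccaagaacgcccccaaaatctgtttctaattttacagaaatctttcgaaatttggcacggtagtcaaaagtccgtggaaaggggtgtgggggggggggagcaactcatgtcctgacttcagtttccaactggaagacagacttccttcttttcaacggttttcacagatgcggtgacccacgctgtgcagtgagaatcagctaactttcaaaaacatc
Pdgfra: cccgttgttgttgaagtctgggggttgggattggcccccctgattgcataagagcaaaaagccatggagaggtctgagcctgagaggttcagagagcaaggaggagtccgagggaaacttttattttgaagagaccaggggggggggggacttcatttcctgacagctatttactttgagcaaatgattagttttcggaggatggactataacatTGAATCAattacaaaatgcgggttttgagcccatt
Dpt: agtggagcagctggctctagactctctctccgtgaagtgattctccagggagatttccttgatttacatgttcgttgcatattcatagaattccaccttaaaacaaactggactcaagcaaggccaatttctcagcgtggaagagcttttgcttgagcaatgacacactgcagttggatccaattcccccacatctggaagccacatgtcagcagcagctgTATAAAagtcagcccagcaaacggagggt

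Postn and Dpt each held 1 TATA box, with its first base at -44 and -29 counted from the base before the start (-1). Olfml2a held 2 GC boxes (-86 and -66), Pdgfra held 1 AP-1 match (-35), and Fap held none of the 4 motifs. No match in these 5 sequences overlapped another. Over the 23 members with a sequence, the TATA box was found in 3, the GC box in 14, the AP-1 site in 2 and the TEAD site in 5. Over all 27457 promoters of the same length the shares were 13.1% for the TATA box, 32.4% for the GC box, 6.36% for the AP-1 site and 11.8% for the TEAD site. These matches are descriptions of letters, not of binding.

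Signals are log2 values normalised by Robust Multichip Average (RMA), and a difference is final minus basal on that scale. The medians of the arrays lay between 7.75 and 7.80 in final and between 7.67 and 7.79 in basal samples. For hexokinase, whose 3′ probe set outruns its 5′ one as RNA loses integrity or labelling stops short, the gap between them was 0.89 to 1.10 in final samples and 0.97 to 2.36 in biopsies, highest in the biopsies of 45D3 (2.36) and 67D3 (2.03). The BioB spike-in, which the authors used to estimate sensitivity, averaged 7.97. Both group means lay under it for 9 members (Thbs2, Vtn, Eln, Fbln1, Fbln5, Lama2, Hspg2, Pdgfrb and Fap). The basal mean alone did for 3 (Olfml2a, Efemp1 and Nid2). These 12 differences rest at least partly on dim signal and are given without folds.

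Most of these genes had a higher signal in the final sample than in the biopsy of the same tumour, and the exception was 1 tumour, 45D3, in which most were lower. The mean difference was above 0 for 33 of the 35 tested members, against 47.9% of all 10839 genes tested, and ranged from -0.01 for Matn2 to 1.83 for Dpt. The median over the members was 0.40, against -0.01 over all genes. None of the members passed the threshold over all probe sets (limma with the tumour as a block, 0 of 35 at an adjusted p under 0.05; 0.00% of all genes passed), and the smallest adjusted p was 0.413, that of Olfml2a. At an unadjusted p under 0.05, 5 members were higher (Olfml2a, Postn, Fap, Sparc and Mfap5) and 0 lower, against 2.78% of all genes higher and 4.36% lower. In 2 members, Olfml2a and Postn, all 5 tumours were higher, against 3.52% of all genes, and 0 members were lower in all 5 (5.27% of all genes). In 0 members did the final and basal signals fail to overlap (0.111% of all genes had every final signal above every basal one, and 1.09% every final signal below every basal one).

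**Figure D1:**
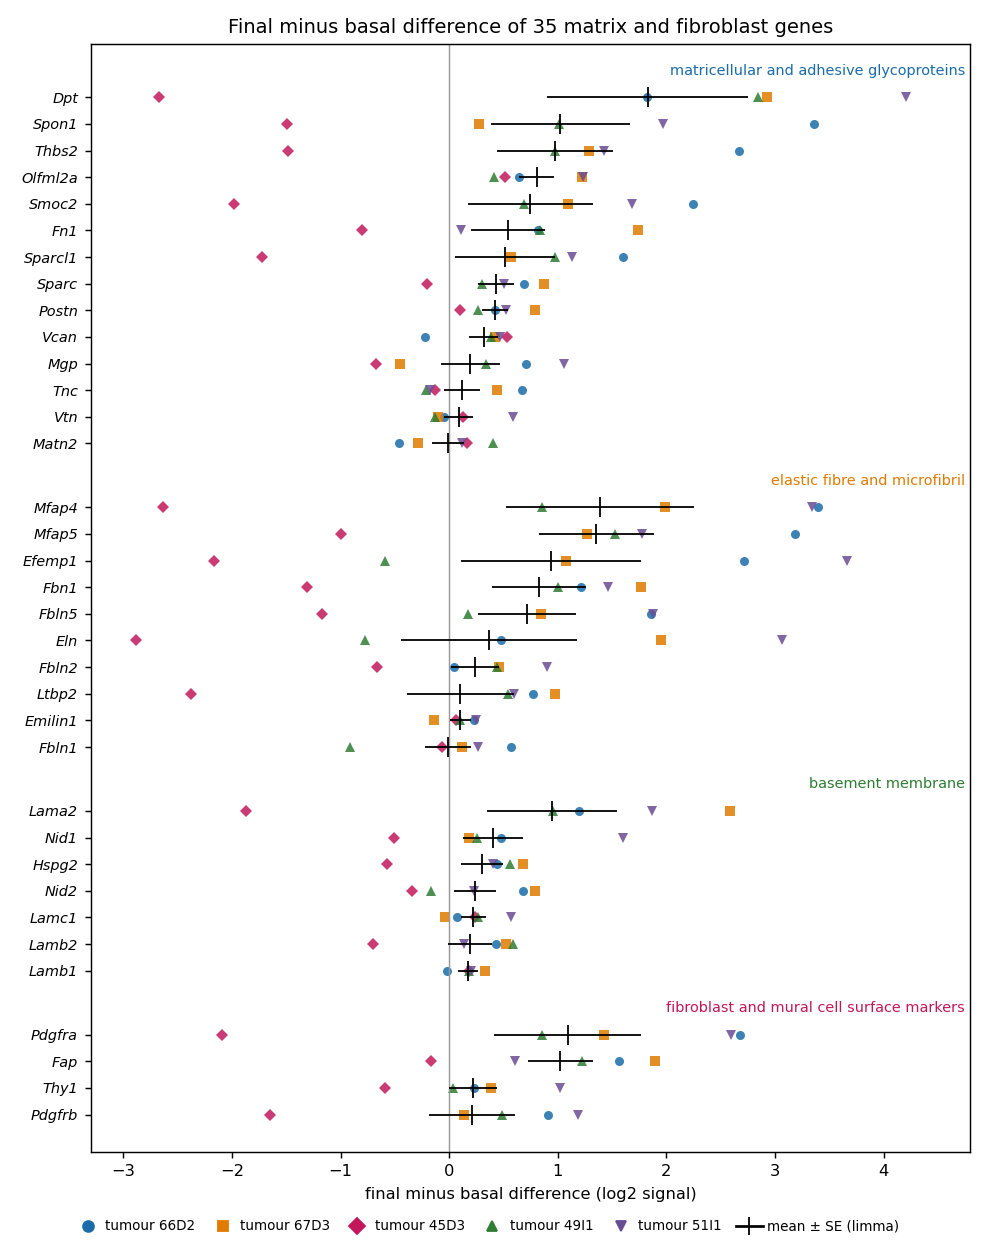
Final minus basal difference in log2 signal (horizontal axis) for the 35 tested members (rows, in 4 groups by role), with 1 symbol per tumour and the mean ± SE from limma in black. Tumour 45D3 lies left of 0 for 27 members while the other 4 tumours lie mostly to the right, and only Olfml2a and Postn have all 5 symbols right of 0.

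By tumour, the median difference over the 35 members was 1.03 in 51I1, 0.79 in 67D3, 0.69 in 66D2 and 0.41 in 49I1, and -0.67 in 45D3. The members that were higher numbered 34 in 51I1, where Tnc was the exception (-0.17), 31 in 66D2, 30 in 67D3, 29 in 49I1, and only 8 in 45D3. In 45D3 the other 27 were lower, against 45.8% of all genes. The medians over all genes stayed between -0.08 (51I1) and 0.04 (45D3). The combination of higher in the other 4 tumours and lower in 45D3 was met by 21 of the 35 members, against 8.34% of all genes. The signal was higher in those 4 tumours, whatever 45D3 did, for 23 members, against 11.9% of all genes. The contrast of 45D3 was known from earlier results of these data.

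Tumour 45D3 stood apart mainly in its final sample, while its biopsy was mixed. Its final sample had the lowest signal of the 5 final samples for 28 of the 35 members (16.0% of all genes), and its biopsy had the highest signal of the 5 biopsies for 13 (23.8% of all genes). Both were true of 11 members, against 5.52% of all genes. For Postn, Tnc, Vcan, Vtn, Emilin1, Lamb1, Lamc1 and Fap the biopsy of 45D3 was instead the lowest of the 5 biopsies. The hexokinase gap of 45D3 was 0.89 in its final sample and 2.36 in its biopsy, the highest of all, and its mean GAPDH signal was 13.08 in the final sample and 12.29 in the biopsy, the lowest of all. The part of these in the member values was not tested, and a fit with hexokinase as a covariate is given below.

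Leaving out each tumour in turn gave between 3 and 23 members higher at an unadjusted p under 0.05. Without 45D3 there were 23 (8.50% of all genes were higher at that threshold), with 0 lower and a median over the members of 0.68. Even then 0 members passed over all probe sets, the smallest adjusted p being 0.097 for Dpt and Fbn1 (limma). Without 67D3, 49I1 or 51I1 there were 3, against 1.54%, 2.18% and 2.44% of all genes, and without 66D2 there were 4, against 1.30%. With the tumour as a random block there were 5 (2.80% of all genes), and with quantile normalisation (2.56%) or the plain paired test that the authors' methods name (2.75%) there were 4.

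**Figure D2:**
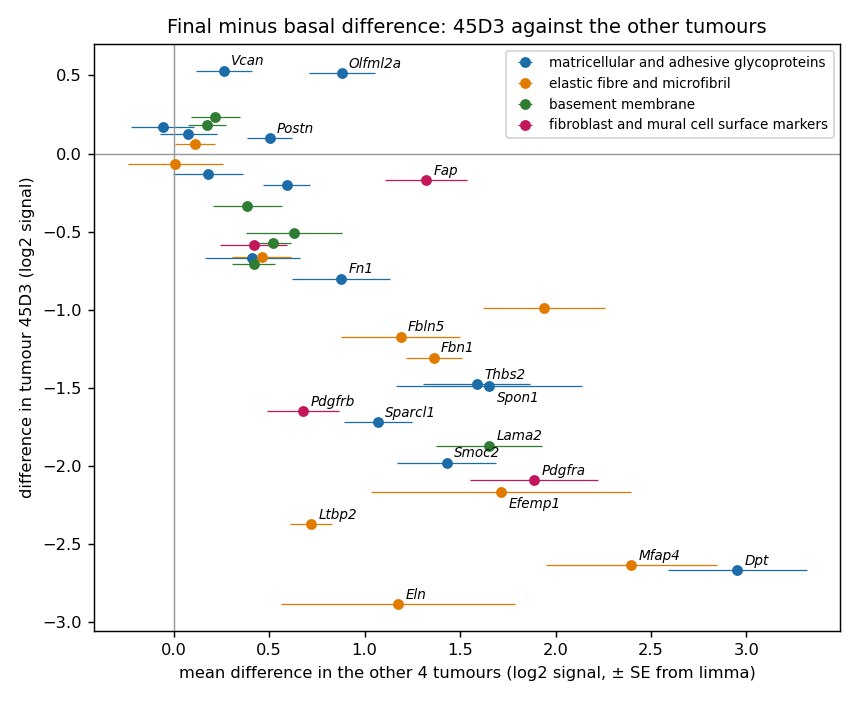
Difference in tumour 45D3 (vertical axis, log2 signal) against the mean difference in the other 4 tumours (horizontal axis, log2 signal, bars are the SE from limma) for the 35 tested members, coloured by role. Dpt and Mfap4 lie farthest right and near the bottom. Olfml2a, Postn and Vcan lie above 0 on both axes, as do Emilin1, Lamb1, Lamc1 and Vtn.

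Among the 14 tested matricellular and adhesive glycoproteins, 13 had a higher mean in final samples, and the median difference was 0.47. Of these, 3 were higher at an unadjusted p under 0.05 (Olfml2a, Postn and Sparc). Over all genes, 47.9% had a higher mean and 2.78% were higher at that threshold. Per-sample signals below follow the tumours in the order 66D2, 67D3, 45D3, 49I1 and 51I1. Olfml2a, an olfactomedin-domain glycoprotein that binds glycosaminoglycans, had signals of 7.53, 8.84, 8.79, 8.43 and 8.35 in final samples, against 6.89, 7.61, 8.28, 8.02 and 7.12 in basal biopsies. Every final signal was above that of its own biopsy, although the groups overlap because the biopsy of 45D3 (8.28) exceeded the final signal of 66D2 (7.53). The mean difference was 0.81 (SE 0.16; limma, adjusted p = 0.413), and a second, dimmer probe set gave 0.50 with 4 of 5 tumours higher.

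Postn encodes periostin, a matricellular protein secreted by activated fibroblasts that binds collagen and integrins. Its signals were 12.18, 13.11, 11.53, 13.19 and 13.06 in final samples, against 11.75, 12.32, 11.43, 12.92 and 12.54 in basal biopsies. The tumours kept a similar order at both moments, with 45D3 lowest and 49I1 highest, and the within-tumour differences, at most 0.79, were smaller than the range of 1.48 between biopsies. Final exceeded basal on average by 0.42 (SE 0.12; limma, adjusted p = 0.556), a 1.34-fold higher signal. Sparc, a collagen-binding matricellular protein, averaged 12.46 ± 0.35 in final samples and 12.03 ± 0.20 in biopsies (SD, n = 5 each) and differed by 0.43 (SE 0.17; limma, adjusted p = 0.595), with 4 of 5 tumours higher and -0.20 in 45D3.

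Dpt encodes dermatopontin, a small protein that binds decorin and accompanies collagen fibrils. Its signals were 9.33, 11.49, 7.40, 9.90 and 10.97 in final samples, against 7.51, 8.56, 10.07, 7.05 and 6.76 in basal biopsies. In 4 tumours the final signal was higher by 1.82 to 4.21, and in 45D3, at -2.67, the final sample was the lowest of all final samples and the biopsy the highest of all biopsies. On average the difference was 1.83 (SE 0.92; limma, adjusted p = 0.657), and without 45D3 it was 2.95 (SE 0.36; limma, adjusted p = 0.097). A second probe set of Dpt gave 1.81, with the same signs in each tumour.

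Fn1, fibronectin, the adhesive glycoprotein on which much of the other matrix is assembled, had signals of 11.72, 12.33, 9.89, 11.79 and 11.72 in final samples, against 10.90, 10.59, 10.69, 10.95 and 11.61 in basal biopsies. The 4 final samples other than 45D3 lay between 11.72 and 12.33, and that of 45D3 lay at 9.89. The mean difference was 0.54 (SE 0.34; limma, adjusted p = 0.705), and it was 0.88 without 45D3.

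Spon1 (F-spondin, a heparin-binding adhesion protein), Smoc2 (a calcium-binding relative of Sparc), Thbs2 (thrombospondin 2, an inhibitor of angiogenesis) and Sparcl1 (hevin) shared the direction of Dpt in each tumour. Their mean differences were 1.02 (SE 0.64), 0.75 (SE 0.57), 0.97 (SE 0.53) and 0.51 (SE 0.46), and in 45D3 they were -1.49, -1.98, -1.48 and -1.72. In the other 4 tumours each was higher, for Spon1 by 0.28 to 3.36 and for Smoc2 by 0.69 to 2.24. The biopsy of 66D2 was low for Spon1, at 6.26, where the other biopsies lay between 8.68 and 9.55.

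Tnc, tenascin C, which is induced in tumour stroma, had signals of 9.89, 9.36, 7.53, 10.26 and 9.87 in final samples, against 9.22, 8.92, 7.66, 10.48 and 10.04 in basal biopsies. It was low in both samples of 45D3 and high in both of 49I1, the biopsies spanned 2.82, and the largest within-tumour difference was 0.67. Vcan, the large proteoglycan versican, differed by 0.32 (SE 0.13; limma, adjusted p = 0.629), and it was higher in 45D3 (0.53) and lower only in 66D2 (-0.22). Its 3 other tested probe sets gave 0.34 to 0.50 with all 5 tumours higher, and 1 more lay below the dim cutoff.

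Mgp, matrix Gla protein, an inhibitor of calcification, had signals of 13.29, 13.32, 13.05, 13.89 and 13.85 in final samples, against 12.58, 13.78, 13.72, 13.55 and 12.80 in basal biopsies. Its signal exceeded the biopsy in 66D2, 49I1 and 51I1, the other tumours being lower, and the mean difference was 0.19 (SE 0.27; limma, adjusted p = 0.862). Matn2, matrilin 2, an adaptor of filamentous matrix networks, had signals of 8.22, 9.82, 9.34, 9.46 and 9.22 in final samples, against 8.67, 10.11, 9.17, 9.06 and 9.10 in basal biopsies. It was higher in 3 tumours and lower in 2, with a mean difference of -0.01 (SE 0.15; limma, adjusted p = 0.989). Vtn, the adhesive plasma protein vitronectin, differed by 0.09 (SE 0.13; limma, adjusted p = 0.874).

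**Figure D3:**
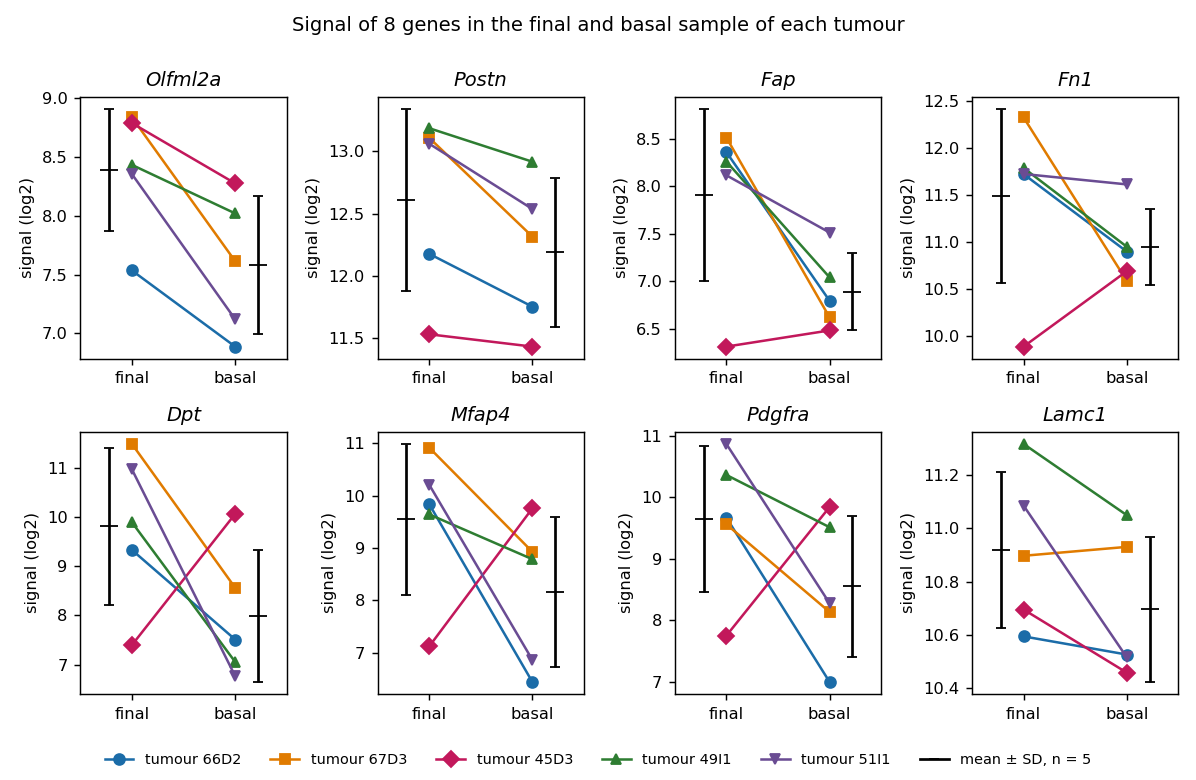
Log2 signal (vertical axes, a separate scale for each gene) of 8 genes in the final (left) and basal (right) sample of each tumour, joined by a line per tumour, with the mean ± SD of each group (n = 5) beside them. The line of 45D3 runs opposite to the others for Dpt, Mfap4, Pdgfra, Fn1 and, slightly, Fap, and with them for Olfml2a and Postn.

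Among the 10 elastic fibre and microfibril genes, 9 had a higher mean in final samples (47.9% of all genes did), with a median difference of 0.54. At an unadjusted p under 0.05, 1 was higher (Mfap5), against 2.78% of all genes. This group spread widely between tumours, with group medians of 1.62 in 51I1, 1.02 in 67D3 and 0.31 in 49I1, and -1.24 in 45D3. In 45D3 9 of the 10 were lower (45.8% of all genes were lower there), and in 66D2 and 51I1 10 of 10 were higher. Mfap4, a microfibril-associated glycoprotein that binds elastin and fibrillin, had signals of 9.84, 10.92, 7.12, 9.64 and 10.21 in final samples, against 6.44, 8.93, 9.76, 8.79 and 6.86 in basal biopsies. Final exceeded basal on average by 1.39 (SE 0.87; limma, adjusted p = 0.705), and without 45D3 by 2.396 (SE 0.45).

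Mfap5, which sits on fibrillin microfibrils, averaged 10.48 ± 1.12 in final samples and 9.13 ± 0.80 in biopsies (SD, n = 5 each) and differed by 1.35 (SE 0.53; limma, adjusted p = 0.605), a 2.55-fold higher signal. Its final samples lay between 10.72 and 11.27 in 4 tumours and at 8.51 in 45D3, and its biopsies lay between 9.45 and 9.50 in 4 tumours and at 7.71 in 66D2. Fbn1, fibrillin 1, the backbone of the microfibril, averaged 10.23 ± 1.14 in final samples and 9.40 ± 0.44 in biopsies (SD, n = 5 each) and differed by 0.83 (SE 0.43; limma, adjusted p = 0.659). It was higher by 0.9999 to 1.77 in 4 tumours, with -1.31 in 45D3, and a second probe set gave 1.003 with the same signs.

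Eln, elastin itself, had signals of 5.73, 8.15, 5.403, 7.83 and 8.27 in final samples, against 5.25, 6.20, 8.29, 8.61 and 5.21 in basal biopsies. It was higher in 66D2, 67D3 and 51I1 and lower in 45D3 and 49I1, the differences reaching 3.06 in 51I1 and -2.89 in 45D3, and the mean difference was 0.36 (SE 0.81; limma, adjusted p = 0.921). Efemp1 (fibulin 3) likewise ran from 3.66 in 51I1 to -2.17 in 45D3, with a biopsy signal of 4.23 in 66D2 that lay under the dim cutoff. Fbln5, which tethers elastin to cells, differed by 0.72 (SE 0.45). Ltbp2, a fibrillin-binding protein, was higher by 0.54 to 0.97 in 4 tumours, with -2.37 in 45D3, which left a mean of 0.10 (SE 0.49).

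Fbln2, a fibulin of elastic fibres and vessel walls, had signals of 11.84, 11.44, 10.49, 11.19 and 11.16 in final samples, against 11.80, 10.98, 11.15, 10.75 and 10.26 in basal biopsies. On average the difference was 0.24 (SE 0.22; limma, adjusted p = 0.796), and it was 0.46 without 45D3. Fbln1, fibulin 1, had signals of 6.56, 5.23, 5.82, 6.63 and 7.11 in final samples, against 5.99, 5.12, 5.89, 7.54 and 6.85 in basal biopsies. It was higher in 3 tumours and lower in 2, most in 49I1 (-0.92), and the mean difference was -0.01 (SE 0.21; limma, adjusted p = 0.994). Emilin1, an elastin-associated glycoprotein, kept its level within each tumour, with differences between -0.14 and 0.25 where the biopsies spanned 1.15, and averaged 9.38 ± 0.55 in final samples and 9.28 ± 0.46 in biopsies (SD, n = 5 each).

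Basement membrane genes had the smallest median difference of the 4 groups, 0.24. All 7 had a higher mean in final samples (47.9% of all genes did). At an unadjusted p under 0.05, 0 were higher, against 2.78% of all genes. Lamc1, the laminin gamma 1 chain found in most laminins, had signals of 10.59, 10.90, 10.69, 11.32 and 11.08 in final samples, against 10.53, 10.93, 10.46, 11.05 and 10.52 in basal biopsies. The mean difference was 0.22 (SE 0.11; limma, adjusted p = 0.659), with -0.03 in 67D3. Lamb1, the laminin beta 1 chain, differed by 0.18 (SE 0.09) and also remained higher in 45D3 (0.18), with -0.02 in 66D2. Lama2, the laminin alpha 2 chain of muscle, nerve and stromal basement membranes, had signals of 7.05, 9.32, 5.90, 8.37 and 7.97 in final samples, against 5.85, 6.73, 7.77, 7.41 and 6.11 in basal biopsies. It followed Dpt and Mfap4 in direction in every tumour, and the mean difference was 0.95 (SE 0.59; limma, adjusted p = 0.705).

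The linker proteins nidogen 1 (Nid1) and nidogen 2 (Nid2) differed by 0.40 (SE 0.28) and 0.24 (SE 0.19). A second probe set of Nid1 was higher in all 5 tumours, 45D3 included (0.53), with a mean of 0.38, whereas the one with the higher signal was lower in 45D3 (-0.51). Lamb2, the laminin beta 2 chain, and Hspg2, the heparan sulphate proteoglycan perlecan, differed by 0.19 (SE 0.20) and 0.30 (SE 0.19). Each was higher in 4 tumours, and in 45D3 the differences were -0.70 and -0.58.

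On their brightest probe sets, all 4 surface markers of fibroblasts and mural cells had a higher mean in final samples (47.9% of all genes did). The median difference was 0.62. Fap alone was higher at an unadjusted p under 0.05 (2.78% of all genes). On those probe sets each was lower in 45D3 and higher in the other 4 tumours (8.34% of all genes). In these bulk samples fewer cells of a type and less RNA per cell cannot be told apart. Pdgfra had signals of 9.67, 9.56, 7.75, 10.36 and 10.87 in final samples, against 6.99, 8.13, 9.84, 9.51 and 8.27 in basal biopsies. The biopsies spanned 2.85, with 66D2 lowest and 45D3 highest, and the final sample of 45D3 was the lowest of its group. Final exceeded basal on average by 1.09 (SE 0.68; limma, adjusted p = 0.705), and without 45D3 by 1.89 (SE 0.33; limma, adjusted p = 0.132).

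Fap, fibroblast activation protein, a surface protease of activated fibroblasts, had signals of 8.36, 8.51, 6.31, 8.26 and 8.12 in final samples, against 6.79, 6.62, 6.48, 7.04 and 7.51 in basal biopsies. The final signals lay between 8.12 and 8.51 in 4 tumours, above every biopsy, and at 6.31 in 45D3, below every biopsy. On average the difference was 1.02 (SE 0.30; limma, adjusted p = 0.556). Thy1, a surface glycoprotein of fibroblasts and T cells, differed by 0.22 (SE 0.22; limma, adjusted p = 0.812).

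Pdgfrb, the receptor of pericytes and fibroblasts, differed by 0.21 (SE 0.40; limma, adjusted p = 0.904) on its brightest probe set. Its probe sets disagreed: the 2 dimmer ones gave -0.25 and -0.53, each with 4 of 5 tumours lower, 45D3 among them. The direction of Pdgfrb thus depends on the probe set, and the counts of members use its brightest one alone. Of the 12 members with several probe sets, Eln and Vcan had a probe set of the opposite sign only below the dim cutoff, and Fbln1 lay within 0.01 of 0 on both of its own.

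Related genes outside the list were described in the same way, and 0 of them passed over all probe sets (limma). Over all genes, 47.9% had a higher mean. At an unadjusted p under 0.05, 2.78% of all genes were higher and 4.36% lower. Both group means lay under BioB for Fbn2, Emilin2, Abi3bp, Lama1, Itga1, Cd36, Pdgfc, Dpp4 and Pi16, and the final mean alone for Twist1. Those differences rest at least partly on dim signal. Of 15 other elastic fibre genes tested, 14 had a higher mean, 2 at an unadjusted p under 0.05: Fbn2, fibrillin 2, at 0.98 (SE 0.34) and Emilin2 at 0.64 (SE 0.26). Mfap3 was the 1 lower (-0.02). The crosslinking oxidases Lox and Loxl1 differed by 0.27 and 0.71, with -1.29 and -2.05 in 45D3. Of 19 other matrix glycoproteins, 18 had a higher mean and 1 (Ecm1, 0.32, SE 0.13) an unadjusted p under 0.05. Abi3bp differed by 1.71 (SE 0.73), and Spp1, osteopontin, was the 1 lower, at -0.35 (SE 0.20).

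Other basement membrane genes were split, with 4 higher and 4 lower of 8. Lama1, the laminin alpha 1 chain, was lower in 5 of 5 tumours (5.27% of all genes were). Its mean difference was -0.43 (SE 0.18; limma, unadjusted p = 0.0461). Lama5, the epithelial alpha 5 chain, differed by -0.31 (SE 0.23). Dag1 and Lamb3, which encode dystroglycan and the laminin beta 3 chain of epithelium, differed by 0.13 (SE 0.09) and 0.19 (SE 0.14). Among 24 receptors of the matrix, 20 were higher, 2 at an unadjusted p under 0.05. Itga1, a collagen and laminin receptor subunit, was higher in 5 of 5 tumours (3.52% of all genes were), 45D3 included (1.02). Its mean difference was 0.55 (SE 0.14; limma, unadjusted p = 0.00628). Cd36, a thrombospondin receptor also abundant in adipocytes and endothelium, differed by 1.53 (SE 0.58), while Sdc4 and Itgb6 differed by -0.15 (SE 0.10) and -0.19 (SE 0.16).

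The ligands of the Pdgf receptors did not share one direction, with Pdgfc at 0.27 (SE 0.16) and Pdgfa at -0.05 (SE 0.15). Of 12 further fibroblast genes 11 had a higher mean, 2 at an unadjusted p under 0.05. These were Dpp4, at 0.98 (SE 0.28), and Pi16, at 0.9975 (SE 0.36), both markers of adventitial fibroblasts in mouse, and Twist1 was the 1 lower (-0.14). Collagens (12 of 12 with a higher mean, median 0.45) and small proteoglycans (7 of 7, median 0.67) had per-tumour medians of -0.64 and -1.03 in 45D3 and above 0.50 in the other 4.

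**Figure D4:**
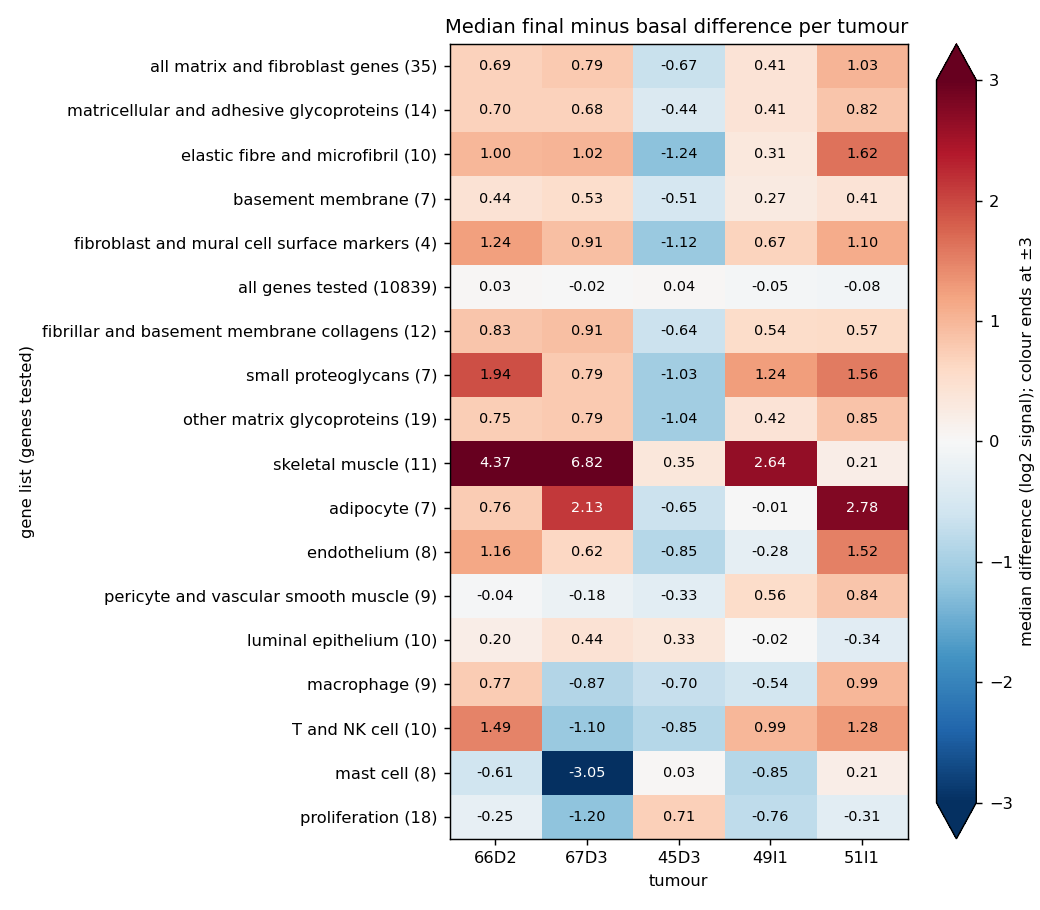
Median final minus basal difference in log2 signal (number and colour, the scale ending at ±3) for the matrix and fibroblast genes, their 4 role groups, all genes, related lists and markers of other cell types (rows, with the number of genes tested), in each tumour (columns). The rows of the 4 role groups are positive in 4 tumours and negative in 45D3, and the skeletal muscle row is above 2 in 66D2, 67D3 and 49I1.

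Markers of several other tissues also had a higher mean in final samples, where 47.9% of all genes did. Skeletal muscle markers were higher in 11 of 11 tested genes, with a median of 2.90, and their summed linear signal was 1899 to 53462 in final samples and 1576 to 2895 in biopsies, with Myh2, Myh4 and Casq1 under the dim cutoff. The brightest of them in the biopsies, Myh1, lay at 10.16 to 10.88 there and differed by only 0.11. By contrast, Myl1 lay at 3.42 to 4.14 in the biopsies. The per-tumour medians of the muscle markers were 6.82 in 67D3, 4.37 in 66D2, 2.64 in 49I1, 0.35 in 45D3 and 0.21 in 51I1. In 51I1 the median was 0.21 for muscle, 2.78 for adipocyte and 1.52 for endothelial markers. There 34 of the 35 members were higher, with a median of 1.03, and the part of each tissue was not tested. With the muscle median as a covariate 2 members were higher at an unadjusted p under 0.05 (0.775% of all genes), 24 of 35 differences were above 0 and the median was 0.20. Olfml2a then differed by 0.72, Postn by 0.24, Fap by 0.26 and Dpt by 0.98.

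Adipocyte markers were higher in 7 of 7 tested genes, with a median of 0.97 and with Plin1, Lep and Cidec under the dim cutoff. Their summed signal was 1407 to 10925 in final samples and 843 to 2129 in biopsies, and their medians were highest in 51I1 (2.78) and 67D3 (2.13) and below 0 in 45D3 (-0.65) and 49I1 (-0.01). Endothelial markers had a median of 0.43, with 8 of 8 higher. Their per-tumour medians were 1.52 in 51I1, 1.16 in 66D2, 0.62 in 67D3, -0.28 in 49I1 and -0.85 in 45D3, and their summed signal was 1275 to 3410 in final samples and 952 to 2302 in biopsies. Schwann cell markers were higher in 4 of 4 tested genes, with a median of 0.32, with Ngfr under the dim cutoff and with a summed signal of 974 to 2184 in final samples and 954 to 1720 in biopsies. Their per-tumour medians ranked the tumours as the members did, at 0.90 in 51I1, 0.65 in 67D3, 0.47 in 66D2, 0.36 in 49I1 and -0.65 in 45D3. This order was not particular to them. It was the same for the adipocyte markers, for other fibroblast genes (1.23 in 51I1 to -0.42 in 45D3) and for other matrix glycoproteins (0.85 to -1.04). Proliferation genes were lower in 18 of 18 (47.9% of all genes were higher), with a median of -0.36, and ran opposite in 45D3 (0.71). The part of these tissues and of proliferation in the matrix differences was not tested. The muscle covariate concerns skeletal muscle alone. Median differences of the muscle markers were above 0 in every tumour, from 0.21 in 51I1 to 6.82 in 67D3, and the part of muscle was not tested either.

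Luminal epithelial markers had a median of 0.05 (7 higher and 3 lower of 10), and pericyte and smooth muscle markers 0.14 (7 higher and 2 lower of 9). Macrophage markers had a median of -0.02 (4 higher and 5 lower of 9), T and NK cell markers 0.34 (9 higher and 1 lower of 10), myoepithelial markers -0.10 (1 higher and 4 lower of 5) and mast cell markers -0.89 (2 higher and 6 lower of 8). Tendon, cartilage and skin keratinocyte lists left 2, 1 and 1 genes above the dim cutoff, with Tnmd, Chad and Thbs4 of the tendon list, Acan, Matn1, Hapln1 and Cnmd of the cartilage list, and Krt1, Ivl, Dsg1 and Krtdap of the skin list under it.

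The spread between tumours was large for these genes. The median SD over the 35 members was 0.74 in final samples and 0.59 in biopsies, against 0.24 in final samples and 0.25 in biopsies over all genes, and the SD of the 5 within-tumour differences had a median of 0.77, against 0.285 over all genes. With the hexokinase difference as a covariate 17 members were higher at an unadjusted p under 0.05 (7.59% of all genes). With array weights, which give less to noisier arrays, 18 were (8.28% of all genes). In both fits 0 members passed the adjusted threshold (limma), and with hexokinase 2 of all 18625 probe sets did. The hexokinase gap changed most in 45D3 (2.36 in the biopsy, 0.89 in the final sample), so that fit is not independent of leaving 45D3 out.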

How the data were processed

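The authors normalised the intensities of Affymetrix rat genome arrays by Robust Multichip Average, as the submitters' processing notes and design text state. Deposited signals were taken to be on the log2 scale, judging by their range and similar medians. The table still held 57 control probe sets, so it precedes the filter that the design text describes. Of 31042 other probe sets, the 2016 platform annotation gave 1 symbol to 20826, several to 436 and none to 9780.

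A cutoff on mean signal removed the dimmest 40% and kept 18625. Final minus basal was estimated by lmFit and eBayes (limma 3.58.1, R 4.3.3), blocking on tumour, since 1 tumour identifier is shared by each final and basal sample in the labels, with Benjamini-Hochberg adjustment over all 18625. The fit was tested on simulated data. Deviations of same-tumour arrays from their group means correlated at 0.30 on average (from 0.72 in 66D2 to -0.16 in 45D3). Precision is limited by the number of arrays. Alternatives changed the dim filter, normalisation, block, weights, covariates and tumours included.

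The members, gene lists and covariates were chosen with earlier results of these data known. Values in every array are given for the 3 members with the smallest p in each direction (only 2 were lower), those with the highest mean signal and the largest difference of each role group, and Postn, Fn1 and Pdgfra; Tnc and Eln were added after their values were seen. Up to 4 genes of each related list are named, the 2 with the smallest p in each direction, with Lox and Loxl1 added likewise.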

Additional observations from a re-analysis of the deposited data

Results flagged for a closer look

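For each of the 35 tested members, the 5 final signals, the 5 basal signals and the 5 differences were searched for 1 value far from the other 4, in 105 sets of 5. Chance flags about 1 in 20 such sets, and 9 were found.

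Of the final signals, those of 45D3 stood below the others for Fn1 (9.89), Mfap5 (8.51) and Fap (6.31). Of the basal signals, those of 66D2 stood below the others for Spon1 (6.26) and Mfap5 (7.71). Of the differences, those of 45D3 stood below the others for Fbn1 (-1.31), Ltbp2 (-2.37) and Hspg2 (-0.58), and that of 66D2 for Vcan (-0.22).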

How the results depend on the processing

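With no adjusted call among the members, none could be lost, and 0 members passed under any of the 16 alternatives. The count of members higher at an unadjusted p under 0.05 (5) was 18 under array weighting, 17 once hexokinase was a covariate, 2 once skeletal muscle was, and 3 to 23 when 1 tumour was left out. It was 23 without 45D3, a tumour left out after its direction was known. The count higher in every tumour (2) was 3 with the mean of probe sets. It was 2 to 23 when 1 tumour was left out, which leaves fewer signs to agree. The 23 came without 45D3, against 11.9% of all genes. For the other tumours left out, the share over all genes was not computed. The median over the members kept its sign in all 16, from 0.20 (skeletal muscle covariate) to 0.79 (hexokinase covariate). The fit with no replicate block, in place of pairing, also gave a count of 5 (1.35% of all genes). With the skeletal muscle covariate 11 members turned sign: Ltbp2 (-0.74), Fn1 (-0.34), Eln (-0.29), Tnc (-0.19), Lamb2 (-0.18), Nid2 (-0.14), Lama2 (-0.0962), Pdgfrb (-0.0337), Hspg2 (-0.0286), Sparcl1 (-0.0005) and Matn2 (0.22). Fbln1 turned with array weights (0.0873) and the hexokinase covariate (0.004), and Pdgfrb with the mean of its probe sets (-0.19). When 1 tumour was left out, 8 members turned sign. Eln ran from -0.31 (without 51I1) to 1.18 (without 45D3). Ltbp2 ran from -0.11 to 0.72 and was below 0 whichever tumour other than 45D3 was left out. Fbln1 ran from -0.15 to 0.22, Matn2 from -0.11 to 0.10 and Mgp from -0.0201 to 0.41, and the lowest values were -0.038 for Vtn, -0.0301 for Pdgfrb and -0.0203 for Tnc. The cause was not tested. The 12 members with a group mean under BioB, the spike-in used to estimate sensitivity, are limited by that.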
